A study of Homo sapiens with 6 samples.

Results

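The family of miR-28, miR-151a and miR-708 was examined in small RNA libraries of A549 cells with and without a SMARCA4 plasmid. Its members were all rows of the deposited miRNA table named miR-28, miR-151a, miR-151b or miR-708, either arm. The rule was met by 5 of the 787 rows: hsa-miR-28-3p, hsa-miR-28-5p, hsa-miR-151a-3p, hsa-miR-151a-5p and hsa-miR-708-5p, written below without the species prefix. A549 cells are an epithelial line established from a human lung adenocarcinoma, and SMARCA4 (BRG1) is an ATPase of the SWI/SNF chromatin remodelling complex. One group of 3 libraries came from cells given the empty plasmid pcDNA4 and the other group of 3 from cells given pcDNA4-SMARCA4, both delivered with a lipid reagent and both collected 48 h later. The labels call the treatment a restoration of SMARCA4, the replicates are described as biologically independent, and SMARCA4 itself was not analysed here. All libraries derive from 1 cell line, and transient transfection leaves cells that took up no plasmid in the sample.

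A miRNA hairpin is cut into a 5p and a 3p arm, and an arm loaded into an Argonaute protein represses mRNAs that pair with its seed, bases 2 to 8. The hairpins of miR-28, miR-151a and miR-708 are related in sequence and lie in introns, and miRNAs of this kind are usually transcribed with their host genes. In other tumour cells miR-151a-5p is known to favour migration, and miR-708-5p is known as a restrainer of metastasis, while the 2 arms of miR-28 have different seeds and different targets.

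RefSeq sequences (GRCh38.p14) were at hand for miR-28-3p and for both arms of miR-708. They are shown because they carry the family resemblance, with the seed in capitals.
miR-28-3p: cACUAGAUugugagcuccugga
miR-708-3p: cAACUAGAcugugagcuucuag
miR-708-5p: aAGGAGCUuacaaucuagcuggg
The miR-28-3p sequence lies at chr3:188688834-188688855 on the plus strand, and the arms of miR-708 lie at chr11:79402032-79402053 (3p) and chr11:79402077-79402099 (5p) on the minus strand. Aligned without gaps, miR-28-3p and miR-708-3p shared 17 of 21 aligned bases, but shifted by 1 base, so that their seeds differ. The reverse complement of miR-28-3p matched miR-708-5p at 16 of 20 aligned bases, close to the 16 of 21 by which the reverse complement of miR-708-3p matched it. The seed of miR-708-5p, AGGAGCU, occurred anywhere in the mature sequence of 3 of 697 listed miRNAs with a RefSeq sequence (0.43%), the other 2 being miR-339-5p and miR-4421. Its reverse complement AGCUCCU occurred among these only in miR-28-3p (0.143%). Of the same 697, none besides the member itself shared bases 2 to 8 with miR-28-3p or miR-708-5p. Neither the motif counts nor the seed search covered miR-28-5p or either arm of miR-151a, for which no RefSeq sequence was at hand. Whether these members carry either motif was not examined in sequence. As background, miR-28-5p and miR-708-5p are counted as 1 seed family. The motif count and the seed search for AGGAGCU therefore leave out at least miR-28-5p, a listed member.

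Each hairpin was placed in GENCODE 29 (GRCh38). MIR28 (chromosome 3, 188688781 to 188688866, plus strand) lies in an intron of LPP, which encodes a LIM protein of focal adhesions, 19400 bases from the nearest exon. MIR151A (chromosome 8, 140732564 to 140732653, minus strand) lies in an intron of PTK2, which encodes focal adhesion kinase, 2391 bases from the nearest exon. MIR708 (chromosome 11, 79402022 to 79402109, minus strand) lies in an intron of TENM4, which encodes a teneurin of the cell surface, 36852 bases from the nearest exon. All 3 are on the strand of their host.

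The row of miR-151a-5p carries an at sign after its name, as do 12 of the 787 rows in all. The mark is not explained in the sources used here. Among marked rows with a RefSeq sequence, 7 of 8 had a mature sequence identical to, contained in or containing that of another named miRNA, against 2 of 689 unmarked rows. For 0 of the marked rows was the other name listed as well. As background, the mature sequence of miR-151b is contained in that of miR-151a-5p, so reads of both may stand in this row. MIR151B (chromosome 14, 100109419 to 100109514) lies in an intron of EVL on the opposite strand, 140 bases from MIR342.

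The libraries held between 701885 and 1079944 reads assigned to listed miRNAs, except SMARCA4 replicate 2 with 7274329, which is 8.33 times the mean of the other 5. That library also had the highest deposited total and, with empty vector replicate 2, the lowest precision weights in limma (0.298 and 0.517, against 1.46 to 1.84 in the other libraries). Values of the members are therefore also given without it. Where 3 values are given for a group, they stand in the order of replicates 1, 2 and 3. Of 8 epithelial miRNAs, 7 were above 0, with a summed level of 599 to 863 normalized counts in empty vector libraries and 727 to 914 with SMARCA4. Within that sum miR-141-3p (log2 fold change 2.55) and miR-203a-3p (2.83) rose, both with a limma adjusted p of 0.0124, and miR-200b-3p, the highest of the 7, had a log2 fold change of −1.14 (limma adjusted p = 0.109). Of 7 blood cell miRNAs, 3 were above 0, with summed levels of 5621 to 7213 and 7962 to 14458, nearly all of it miR-486-5p, while miR-150-5p never passed 3.77. Of 8 miRNAs of muscle, liver and neurons 2 were above 0, miR-128-3p and miR-9-5p, both in every library, with summed levels of 1080 to 1791 and 1785 to 1964. Of 5 mesenchymal miRNAs 3 were above 0, with summed levels of 22.6 to 51.3 and 31.4 to 122, nearly all of it miR-143-3p. miR-1-3p, miR-133a-3p and miR-214-3p of these lists were at 0 in every library. The part of these markers in the results below was not tested.

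The family was abundant in A549 cells through 3 of its members. Levels are normalized counts, that is, reads multiplied by 1 factor per library, as deposited. Ligation bias differs between miRNAs, so the order of levels is approximate, and the mature miRNAs are of like length. By its mean over 6 libraries, 27064, miR-151a-3p was the 16th most abundant of the 787 miRNAs, followed by miR-28-3p (14819, rank 21) and miR-151a-5p (10838, rank 28). miR-28-5p was far lower (796, rank 86) and miR-708-5p was close to absent (0.387). Together the members made up 2.66%, 2.03% and 2.90% of the total with the empty vector and 3.23%, 2.31% and 3.29% with SMARCA4. The groups overlapped (2.53% ± 0.446 against 2.94% ± 0.550, SD, n = 3 each; exact two-sided permutation p = 0.4, adjusted p = 0.45 over 9 single-value tests). With 3 libraries against 3 that test cannot go under 0.1. The share was higher with SMARCA4 in 3 of 3 same-numbered comparisons (exact sign-flip p = 0.25, the smallest that 3 pairs allow). Replicate numbers were not taken as pairs, here or below. The difference of 0.410 percentage points was 0.162 without empty vector replicate 2, 0.267 and 0.237 without SMARCA4 replicates 1 and 3, and 0.727 without SMARCA4 replicate 2.

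No member passed the test between the groups. Of 4 members tested, 0 had a limma adjusted p under 0.05, against 1.41% of all 637 miRNAs tested. Under an unadjusted p of 0.05 was 1 of the 4, miR-28-3p, against 22.6% of all. On the recovered reads edgeR called 0 of the 4 and 1.26% of all, and DESeq2 called 0 of the 4 and 10.4% of the 425 miRNAs for which it gave an adjusted p. All 4 log2 fold changes were above 0, with a median of 0.43 against −0.05 over all tested miRNAs, of which 48.4% were above 0. The tested members other than miR-28-5p were abundant, whereas the median over all tested miRNAs includes many scarce ones. No median over miRNAs of like level was taken, so whether this contrast is particular to the family cannot be told. The signs of miR-151a-5p and miR-28-5p depended on the scaling, as described below.

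**Figure D1:**
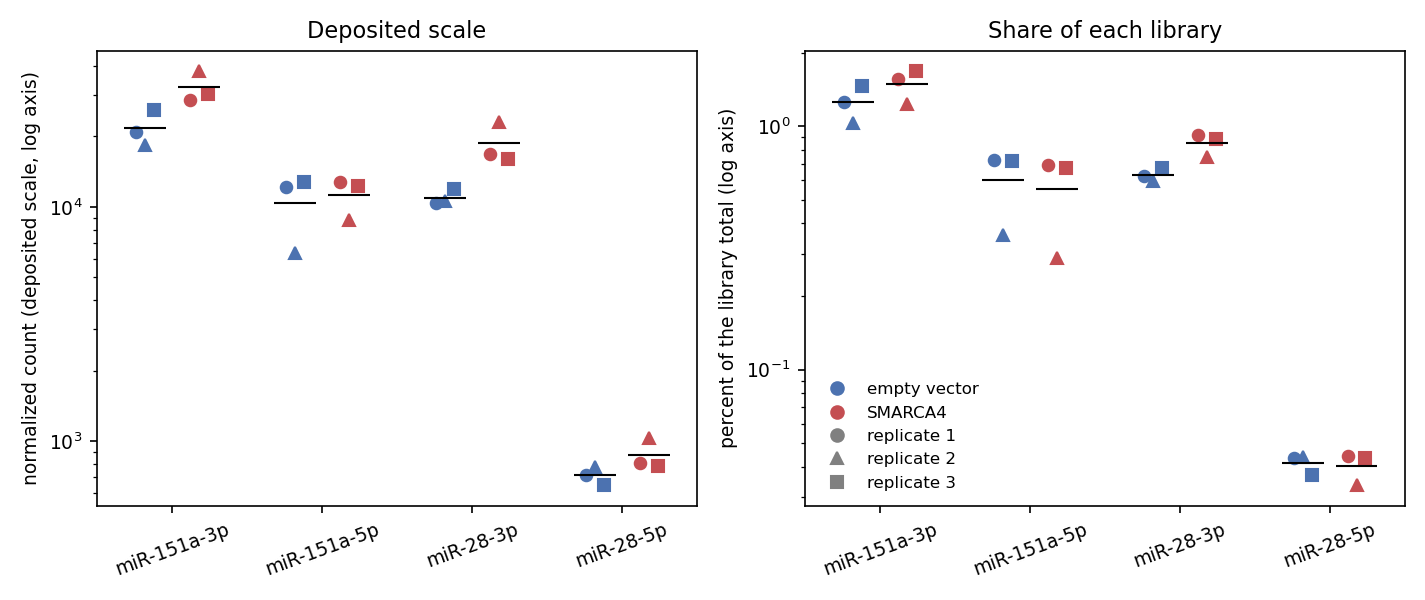
Level of 4 family members in every library, as deposited normalized counts (left) and as percent of the library total (right), both on log axes. Symbols mark the replicate, colours the group and bars the group mean; miR-28-3p is the member whose groups do not overlap in either panel, and miR-151a-5p is lowest in the replicates numbered 2.

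The 3p arm of miR-28 showed the largest difference of the family. It was at 10363, 10606 and 11900 normalized counts with the empty vector. With SMARCA4 it was at 16873, 23076 and 16093. Every SMARCA4 library was above every empty vector library, and the lowest of the first was 1.35 times the highest of the second. Among all tested miRNAs 31.1% had groups that did not overlap, and 15.9% did so with the SMARCA4 group higher. The means were 10957 ± 826 and 18681 ± 3826 (SD, n = 3 each), a ratio of 1.70. In limma the log2 fold change was 0.75 (SE 0.26, 95% interval 0.17 to 1.34, adjusted p = 0.129), and 136 of the 637 tested miRNAs had a higher one. SMARCA4 replicate 2 was the highest library, and without it the log2 fold change was 0.59 (adjusted p = 0.0812). As a percent of the library, which removes the larger deposited total of that replicate, miR-28-3p was at 0.624, 0.597 and 0.674 with the empty vector and at 0.919, 0.751 and 0.888 with SMARCA4. The groups stayed apart on that scale too, where 9.26% of tested miRNAs were apart with SMARCA4 higher, and the ratio of the means was 1.35 (exact two-sided permutation p = 0.1, the smallest possible).

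The other arm of the same hairpin, miR-28-5p, differed less. It was at 718, 778 and 651 normalized counts with the empty vector. With SMARCA4 it was at 811, 1033 and 784. The groups were barely apart, with the lowest SMARCA4 value 1.01 times the highest empty vector value. On this scale 15.9% of all tested miRNAs were apart with SMARCA4 higher. The means were 716 ± 63.6 and 876 ± 137 (SD, n = 3 each). In limma the log2 fold change was 0.28 (SE 0.26, 95% interval −0.31 to 0.88, adjusted p = 0.543), and without SMARCA4 replicate 2 it was 0.16. As a percent of the library it was at 0.0413 ± 0.00386 against 0.0403 ± 0.00584, and the groups overlapped. Its reads, from 310 to 409 in all libraries but the deepest, give a 95% Wilson half-width of up to 11.1% of the value, against at most 3.39% for the 3 abundant members.

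The 3p arm of miR-151a, the most abundant member, was at 20967, 18370 and 25879 normalized counts with the empty vector. With SMARCA4 it was at 28764, 37924 and 30479. The groups did not overlap, with the lowest SMARCA4 library 1.11 times the highest empty vector library. Of all tested miRNAs 15.9% were apart in this direction. The means were 21739 ± 3814 and 32389 ± 4869 (SD, n = 3 each), a ratio of 1.49. In limma the log2 fold change was 0.58 (SE 0.27, 95% interval −0.03 to 1.18, adjusted p = 0.230), and without SMARCA4 replicate 2 it was 0.46 (adjusted p = 0.194). As a percent of the library the values were 1.26, 1.03 and 1.47 against 1.57, 1.23 and 1.68, and the groups overlapped. SMARCA4 replicate 2, highest of all on the deposited scale, was then below 2 of the empty vector libraries.

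The 5p arm of miR-151a did not separate the groups and was lowest in the replicates numbered 2. It was at 12139, 6344 and 12725 normalized counts with the empty vector. With SMARCA4 it was at 12775, 8814 and 12233. The other 4 libraries lay within 12139 to 12775. The groups overlapped, with means of 10403 ± 3527 and 11274 ± 2148 (SD, n = 3 each). In limma the log2 fold change was 0.16 (SE 0.33, 95% interval −0.59 to 0.92, adjusted p = 0.808). Leaving out the low library of the empty vector group gave −0.16, and leaving out that of the SMARCA4 group gave 0.33. The labels do not say what a replicate number shares between groups.

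Scarcity set apart miR-708-5p, whose seed is printed above. It had 1 read in empty vector replicate 2, 1 read in SMARCA4 replicate 2 and 0 reads in the other 4 libraries. With 0 reads, up to 3 remain possible, or 4.91 to 7.84 normalized counts in those 4 libraries, for counting error only. The mean lay under the minimum of 1 required for the test, so no fold change is given. A difference in miR-708-5p within the limits left by 0 reads was not detectable at this depth.

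**Figure D2:**
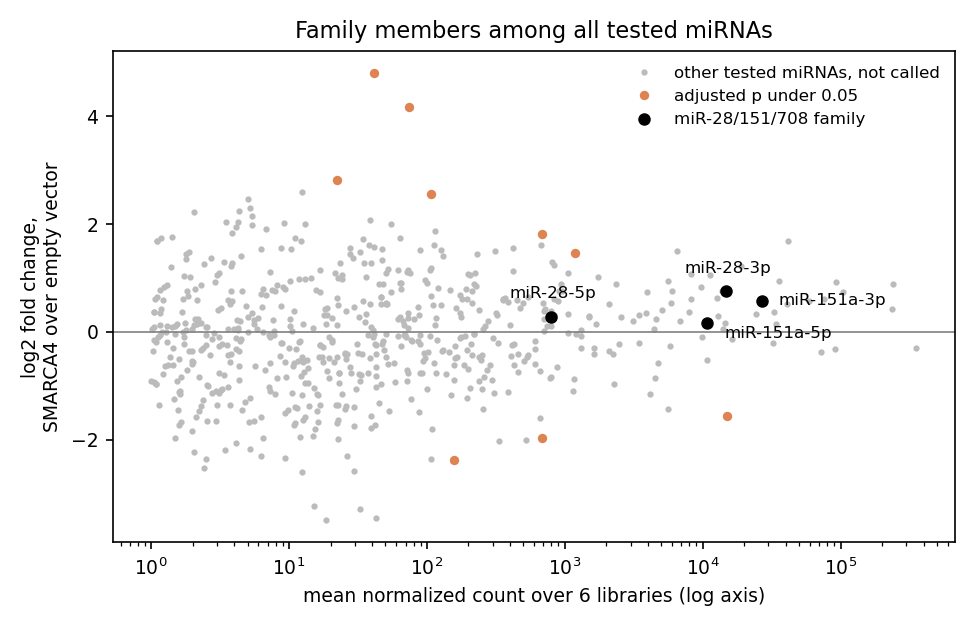
Log2 fold change of the 637 tested miRNAs against their mean normalized count over 6 libraries (log axis), with the 4 tested family members in black and the 9 miRNAs with an adjusted p under 0.05 in orange. The members lie between 0.16 and 0.75, among the uncalled miRNAs, and 3 of the 4 are at the abundant end.

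Part of these differences depended on the scaling. Giving every library the same total shifted the median over all tested miRNAs by −0.26 (log2). On that scale miR-28-3p was at 0.43 and miR-151a-3p at 0.26, while miR-151a-5p was at −0.16 and miR-28-5p at −0.040 (limma adjusted p = 0.277, 0.566, 0.865 and 0.964). Relative to the median of all tested miRNAs, miR-28-3p was 0.80 higher on the deposited scale, 0.73 with equal totals and 0.40 with quantile normalization. The corresponding values of miR-151a-3p were 0.63, 0.56 and 0.27. The 3p arms were above the median of all tested miRNAs under each of the 4 scalings run, whereas miR-151a-5p fell below it (−0.12) with quantile normalization. That median again included scarce miRNAs and was not taken over miRNAs of like level.

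**Figure D3:**
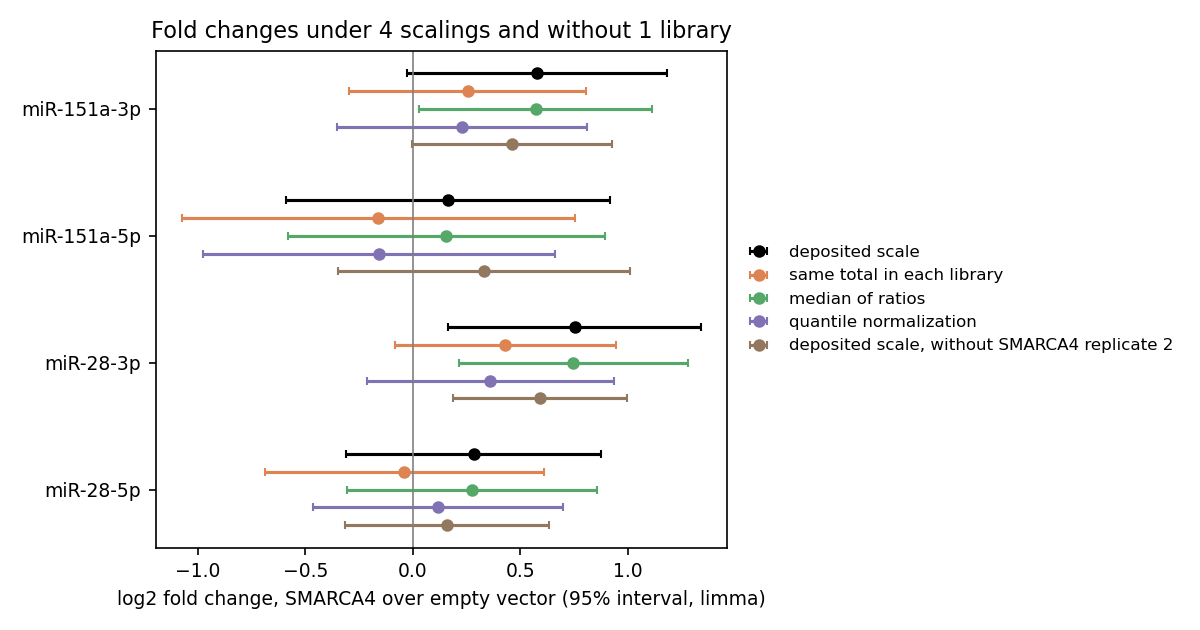
Log2 fold change (SMARCA4 over empty vector) of 4 family members with 95% intervals from limma, under 4 scalings of the libraries and without SMARCA4 replicate 2. Points of miR-28-3p and miR-151a-3p are above 0 in each setting shown, and those of miR-151a-5p and miR-28-5p are on both sides of 0.

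Ratios of 2 members within a library are not changed by a scaling with 1 factor per library. Quantile normalization is not of that kind and can change them. The 5p arm made up 6.48% (95% Wilson interval 5.88 to 7.14), 6.83% (6.22 to 7.50) and 5.18% (4.71 to 5.70) of the miR-28 reads with the empty vector. With SMARCA4 it made up 4.58% (4.11 to 5.11), 4.29% (4.12 to 4.46) and 4.64% (4.18 to 5.16). All SMARCA4 libraries were lower, although the intervals of empty vector replicate 3 overlapped those of SMARCA4 replicates 1 and 3. The means were 6.17% ± 0.868 and 4.50% ± 0.192 (SD, n = 3 each; exact two-sided permutation p = 0.1, the smallest possible, adjusted p = 0.45). Among 98 hairpins with both arms at a mean of at least 10, the 5p share did not overlap between the groups in 41.8%, and in 17.3% it was lower with SMARCA4, so that a separation of this kind was common.

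For miR-151a the 5p share was 36.7%, 25.7% and 33.0% with the empty vector and 30.8%, 18.9% and 28.6% with SMARCA4, with Wilson half-widths of at most 0.751 percentage points. The groups overlapped (31.8% ± 5.59 against 26.1% ± 6.35, SD, n = 3 each; exact two-sided permutation p = 0.4, adjusted p = 0.45). The difference of −5.68 percentage points became −2.07 when SMARCA4 replicate 2 was left out, and −3.23 or −8.73 when replicate 1 or 2 of the empty vector group was. The replicate numbered 2 was the lowest of each group. The SMARCA4 library was the lower one in 3 of 3 same-numbered comparisons (exact sign-flip p = 0.25), which are not known to be pairs. If the row also holds reads of miR-151b, this share is not that of a single hairpin.

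**Figure D4:**
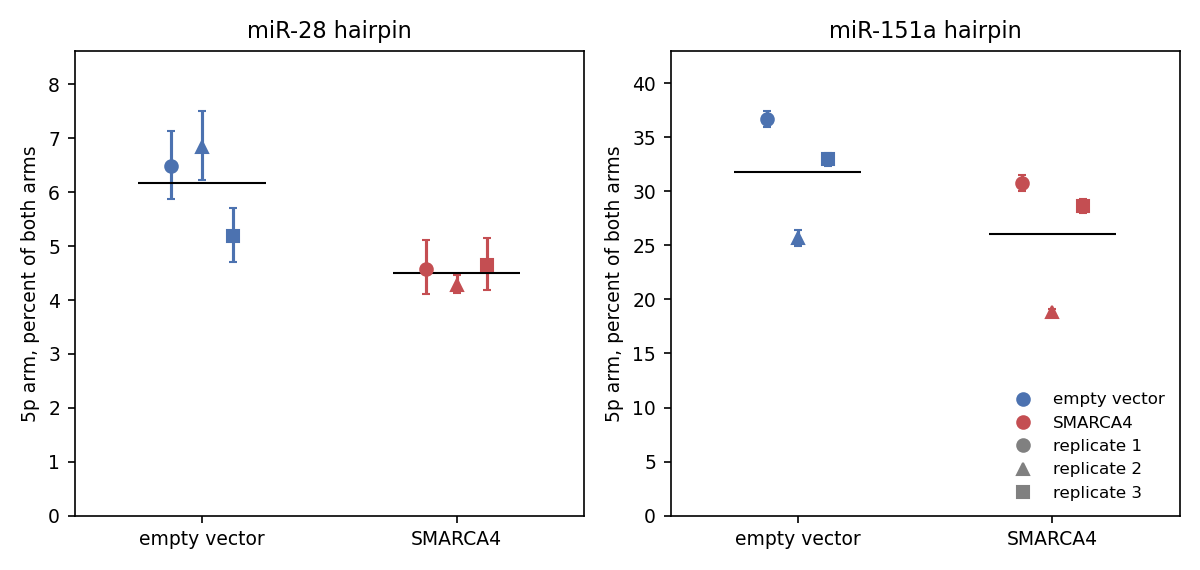
Share of the 5p arm in the reads of both arms of miR-28 (left) and miR-151a (right), per library, with 95% Wilson intervals and group means as bars. For miR-28 the SMARCA4 libraries lie between 4.29% and 4.64%, below the 5.18% to 6.83% of the empty vector libraries, and for miR-151a the groups overlap.

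Between the hairpins, the 3p arms were compared with each other. The log2 ratio of miR-28-3p to miR-151a-3p was −1.02, −0.79 and −1.12 with the empty vector. With SMARCA4 it was −0.77, −0.72 and −0.92, and the groups overlapped (difference 0.17, exact two-sided permutation p = 0.2, adjusted p = 0.45). The SMARCA4 library was higher in 3 of 3 same-numbered comparisons (exact sign-flip p = 0.25), which are not known to be pairs. The ratio with the largest difference was that of miR-28-3p to miR-151a-5p, at 0.14 ± 0.53 against 0.73 ± 0.57 (log2, SD, n = 3 each; exact two-sided permutation p = 0.3, adjusted p = 0.45), and its groups overlapped too. Of the 6 pairs of members, only miR-28-3p to miR-28-5p had groups that did not overlap (log2 ratio 3.94 ± 0.22 against 4.41 ± 0.07, SD, n = 3 each; exact two-sided permutation p = 0.1, adjusted p = 0.45). This is the same measurement as the miR-28 arm share.

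The order of levels around the members switched fully between the groups in 1 place. How often neighbours in level switch in this way over the whole table was not counted. miR-28-3p stood next to miR-222-3p, the miRNA named in the study's title, by mean level, and was below it in 3 of 3 empty vector libraries and above it in 3 of 3 SMARCA4 libraries. miR-222-3p itself fell by 1.57 on the log2 scale (limma adjusted p = 0.0124), so the switch is not a measure of miR-28-3p alone. Below it stood miR-16-5p, a growth-restraining miRNA, which miR-28-3p exceeded in 1 of 3 empty vector libraries and 3 of 3 SMARCA4 libraries. miR-151a-3p was above miR-31-5p in 0 of 3 empty vector and 2 of 3 SMARCA4 libraries, and above miR-92b-3p in 2 of 3 and 3 of 3. miR-28-5p was above miR-125b-1-3p in 1 of 3 empty vector and 3 of 3 SMARCA4 libraries, and above miR-421 in 1 of 3 and 2 of 3. miR-151a-5p was above miR-221-3p, and above miR-30d-5p, in 2 of 3 libraries of each group.

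The closest companions across the 6 libraries differed between members, except that miR-28-3p and miR-151a-3p shared miR-10b-5p. Likeness was the Pearson correlation of log2(value + 1) with 204 other miRNAs of a mean of at least 100, given as a description, since the 6 points share the 2 groups and the library depths. Companions were picked by this correlation, so a pattern shared with the member follows largely from the choice and is no separate result. Most like miR-28-3p were miR-10b-5p (0.98), miR-424-3p (0.98) and miR-221-3p (0.98), all higher in each SMARCA4 library than in any empty vector library. So were 15.9% of all tested miRNAs. Most like miR-151a-3p were miR-130b-3p (0.997), miR-192-5p (0.992) and miR-10b-5p (0.96). miR-192-5p, an abundant p53-responsive miRNA, was at 199884, 178726 and 225947 normalized counts with the empty vector and at 258062, 304401 and 250786 with SMARCA4, with the groups apart in the same direction as the member.

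Most like miR-151a-5p were miR-16-5p (0.99), miR-374a-5p (0.99) and miR-125b-5p (0.98). Each of them was lowest in the replicates numbered 2, as the member was, which the choice by correlation makes likely. For example, miR-374a-5p was at 330, 118 and 340 normalized counts with the empty vector and at 306, 175 and 307 with SMARCA4. Most like miR-28-5p were miR-107 (0.99), miR-1307-3p (0.98) and miR-106b-3p (0.97), which peaked in SMARCA4 replicate 2. Within the family, on the deposited scale, the correlation was 0.94 between the 3p arms of miR-28 and miR-151a. It was 0.83 between the arms of miR-28 and 0.32 between the arms of miR-151a. On that scale the arms of 1 hairpin were less alike than the 3p arms of different hairpins. These correlations were not computed under other scalings, where that order may not hold.

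**Figure D5:**
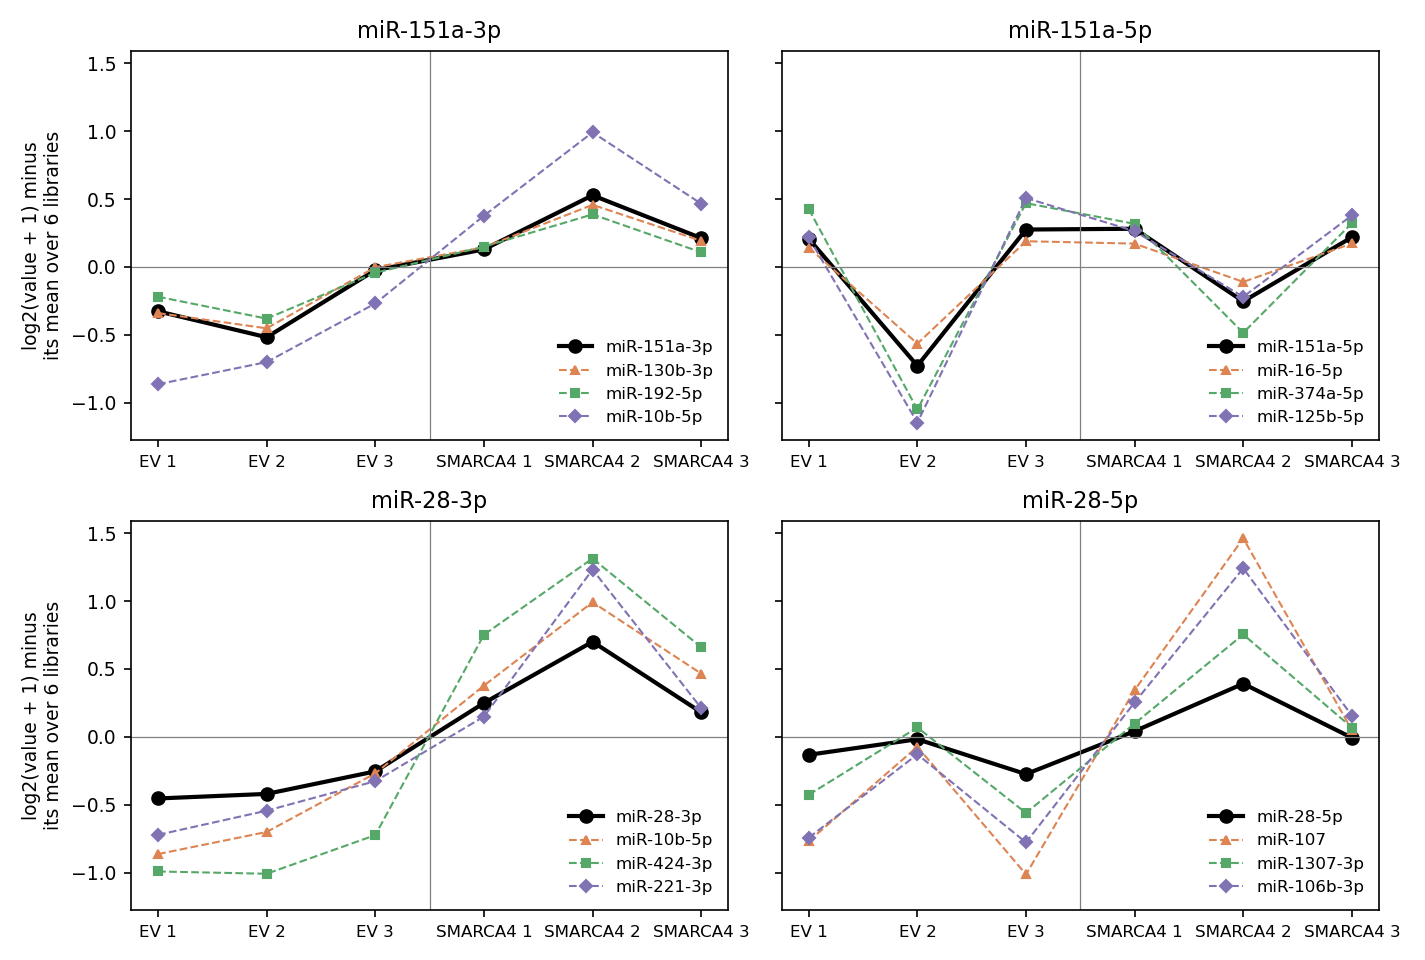
Profiles over the 6 libraries (EV, empty vector) of 4 family members, in black, and of the 3 miRNAs most like each, as log2(value + 1) minus its mean over all libraries. miR-28-3p and miR-151a-3p are higher in every SMARCA4 library, while miR-151a-5p and its companions dip in the replicates numbered 2 of both groups.

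Other miRNAs from introns of protein-coding genes gave a setting for these values. Of 60 listed, 56 could be tested, and by annotation 51 of the 58 present in the table lie in an intron of a same-strand protein-coding gene. With p adjusted over all 637 miRNAs, 0 rose and 0 fell by limma (18 at an unadjusted p under 0.05, against 144 of all 637; 0 by edgeR, 3 changed by DESeq2), with a median log2 fold change of −0.22 and 26 of 56 above 0. Without SMARCA4 replicate 2, 5 of the 56 changed, against 6.44% of all miRNAs tested. The most abundant members of the list were miR-191-5p (log2 fold change 0.37), miR-423-3p (−0.09), miR-25-3p (0.83) and miR-423-5p (0.54), with limma adjusted p-values of 0.545, 0.867, 0.170 and 0.352. Both arms of miR-423 are among the 7 whose hairpin was not within an intron of its host by this annotation. The range of the list, from −3.49 to 1.52, enclosed all 4 family members. A range this wide does not show that the members are like the list.

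At the EVL locus, where MIR151B and MIR342 lie side by side on opposite strands, miR-342-3p was at 190 ± 39.0 normalized counts in empty vector cells and 188 ± 66.0 with SMARCA4 (SD, n = 3 each; limma log2 fold change −0.07 with an SE of 0.37, adjusted p = 0.950). miR-342-5p was at 3.70 ± 2.04 and 2.68 ± 4.63 (SD, n = 3 each), at or below the value of 3 reads in every library but SMARCA4 replicate 2. Neither arm passed the test, and the level of miR-151b was not analysed here.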

How the data were processed

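Per the labels' protocols, total RNA was extracted with a kit that retains small RNA and sequenced from TruSeq small RNA libraries. Per the submitters' processing notes, bcl2fastq 2.18.0.12 and GRCh38 were used; the sources used here do not give the trimmer, aligner, counter, miRNA annotation or treatment of shared reads. The authors deposited 1 normalized signal for each mature miRNA, called TMM by the table's name. Every value was a whole multiple of 1 factor per library (100% within 1e-06 reads), so reads were recovered.

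The main test was limma 3.58.1 (R 4.3.3) on log2(value + 1) with a mean-variance trend and group as the only term, over 637 miRNAs with a mean of at least 1, and 150 were left out. p-values were adjusted by the Benjamini-Hochberg method and read at 0.05. Fold changes on this scale understate changes of scarce miRNAs. edgeR 4.0.16 (quasi-likelihood) and DESeq2 1.42.0 (212 adjusted p-values undefined) were run on recovered reads. Shares and ratios were compared by exact two-sided permutation. The limma step was tested on simulated data with larger fold changes than those of the members and the same dispersion for every miRNA. That run therefore does not tell how well changes of the members' size are found. No replicates agreed within sampling noise (lowest chi-square per degree of freedom 6.61). No molecular identifiers are mentioned, so intervals cover counting error only.

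Members, lists and tests were chosen with earlier results of these data known. Named miRNAs were all members, the 3 most correlated with each, those sharing a seed, the nearest in level, the 4 most abundant and any changed on the intronic list, and both arms of miR-342; miR-339-5p, miR-4421 and marker miRNAs were named outside this rule. Positions come from GENCODE 29 and sequences from RefSeq, which held 2 of the 5 members.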

Additional observations from a re-analysis of the deposited data

How the results depend on the processing

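The alternatives were pseudocounts of 0.5 and 5, no filter, a mean of at least 10, equal library totals, median-of-ratios scaling, quantile normalization, no trend, array weights, edgeR, DESeq2, a replicate block and leaving out each library. No family member passed the threshold under any of them. The adjusted p of miR-28-3p ranged from 0.0507 (array weights) to 0.427 (quantile normalization) and its log2 fold change from 0.59 to 0.85 with 1 library left out; that of miR-151a-3p ranged from 0.46 to 0.71. The sign of miR-151a-5p reversed with equal totals (−0.16), quantile normalization (−0.16) and without empty vector replicate 2 (−0.16, range −0.16 to 0.34 over libraries left out), and that of miR-28-5p with equal totals (−0.040). miR-342-3p reversed with array weights (0.28) and ranged from −0.24 to 0.27 with 1 library left out (0.09 leaving out empty vector replicate 2, 0.27 leaving out SMARCA4 replicate 2), and miR-342-5p with edgeR (0.21).

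Over all miRNAs 9 were called, against 23 with no filter, 90 with array weights, 44 by DESeq2 and 0 to 41 with 1 library left out (41 when SMARCA4 replicate 2 was left out, 0 for replicate 1 of either group, 1 for SMARCA4 replicate 3 and 2 for empty vector replicate 3). The intronic list, with 0 called, had 1 with a pseudocount of 5, 2 with no filter, 2 with equal totals, 12 with array weights, 3 by DESeq2, 1 with the replicate block and 0 to 5 with 1 library left out. The difference in the summed share of the family was 1.01 percentage points when the 5 most abundant miRNAs were left out of the total, against 0.410, and 0.162 to 0.727 with 1 library left out. With 1 library left out the difference in 5p share was −2.15 to −1.33 percentage points for miR-28 and −8.73 to −2.07 for miR-151a. The log2 ratio of miR-28-5p to miR-151a-5p (difference 0.12) ranged from −0.17 (without SMARCA4 replicate 2) to 0.51, and the other 5 member ratios did not change sign. The cause of these shifts was not tested.

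Same-numbered libraries correlated in their deviations from the group means by 0.18, 0.12 and 0.03 for numbers 1, 2 and 3, and not every library correlated best with its own number, so the numbers were not taken as pairs. With the replicate block 13 miRNAs were called and the limma adjusted p was 0.109 for miR-28-3p and 0.622 for miR-151a-5p. The exact sign-flip p of the replicate block was 0.25 for both arm shares, the smallest that 3 pairs allow. Depth limits miR-708-5p, with 2 reads in all, and miR-342-5p.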
